A study of Mus musculus with 11 samples.

Results

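Poly(ADP-ribose) polymerases (PARPs) are enzymes that take ADP-ribose from the cofactor NAD and attach it to proteins and nucleic acids. Parp1, Parp2 and Parp3 act on broken DNA, whereas many of the other family members add single ADP-ribose units or bind ADP-ribose through macrodomains, and several of these are induced by interferon and restrict viruses. Dtx3l is a ubiquitin ligase of the Deltex family that works as a pair with Parp9. The 10 genes described here are Parp1, Parp2, Parp3, Parp8, Parp9, Parp10, Parp11, Parp12, Parp14 and Dtx3l, chosen by name, with Parp1 and Parp2 as the housekeeping relatives. Of these, 8 had a probe set of their own among the 22180 genes measured. Parp10 and Dtx3l were covered only by probe sets that the annotation assigns to a further gene as well, Parp10 together with Plec (probe set 17318407) and Dtx3l together with Parp9 (probe set 17330119). Signal from the 2 genes of such a probe set cannot be told apart, so each is called a shared probe set below and is left out of the counts of genes.

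RNA came from mouse hematopoietic stem cells (HSCs, the cells at the origin of all blood lineages) sorted by flow cytometry and was hybridised to 11 Affymetrix arrays. The animals had received ATRA (all-trans retinoic acid) followed by polyIC (RApIC, 3 arrays), polyIC alone (pIC, 2 arrays), ATRA alone (3 arrays) or PBS (3 arrays). PolyIC is a synthetic double-stranded RNA that triggers interferon production, and ATRA is the active form of vitamin A. The sources used here give no strain, age, sorting gate, dose or interval. They also do not say whether replicates came from separate mice, so each p-value reflects the spread among these arrays, which may be technical.

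Values are log2 intensities as deposited. Each change is given as the log2 difference of 2 group means with its standard error (SE) after ±. All come from a single limma fit of the 11 arrays over 22182 features (the 22180 genes and both shared probe sets), and a gene is called where limma's Benjamini-Hochberg adjusted p is under 0.05. Array medians ran from 6.19 to 6.28. The 8 measured HSC markers were above these medians on every array (lowest 7.14, Fgd5 under pIC). Their summed log2 level was 74.1 to 79.4 on RApIC arrays, highest on replicate 2, and 74.3 to 74.7 on pIC arrays. It was 81.0 to 81.9 on ATRA arrays and 80.9 to 81.7 on PBS arrays. RApIC replicate 2 stood apart from its group, at -4.54 on the first principal component (56% of the variance), against 35.8 and 23.3 for RApIC replicates 1 and 3, 35.0 and 37.8 for pIC and -24.5 to -15.2 for ATRA and PBS. Markers of T and NK cells moved with it. The summed log2 level of 11 such markers was 66.0 to 90.9 on RApIC arrays, lowest on replicate 2, 77.8 to 84.0 on pIC arrays, 67.6 to 71.4 on ATRA arrays and 64.5 to 67.1 on PBS arrays. Of the HSC markers 5 of 8 fell in pIC versus PBS (Kit, Procr, Mecom, Hlf and Fgd5), while 2 of 11 T- and NK-cell markers, 2 of 9 macrophage markers and 3 of 6 erythroid markers rose. Without RApIC replicate 2 in the model, 6 HSC markers fell, and 8 T- and NK-cell, 3 macrophage and 5 erythroid markers rose. In that fit 1 macrophage marker fell as well. Of 5 megakaryocyte markers 1 rose and 2 fell in either fit. Over all features 3265 were called in pIC versus PBS (8.97% higher and 5.75% lower), and 4054 without RApIC replicate 2. The differences of pIC from PBS are the same in both fits, which differ in the estimated spread. The part of these marker shifts in the results was not tested. Log2 intensities have no zero, so no marker could be read as absent.

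**Figure D1:**
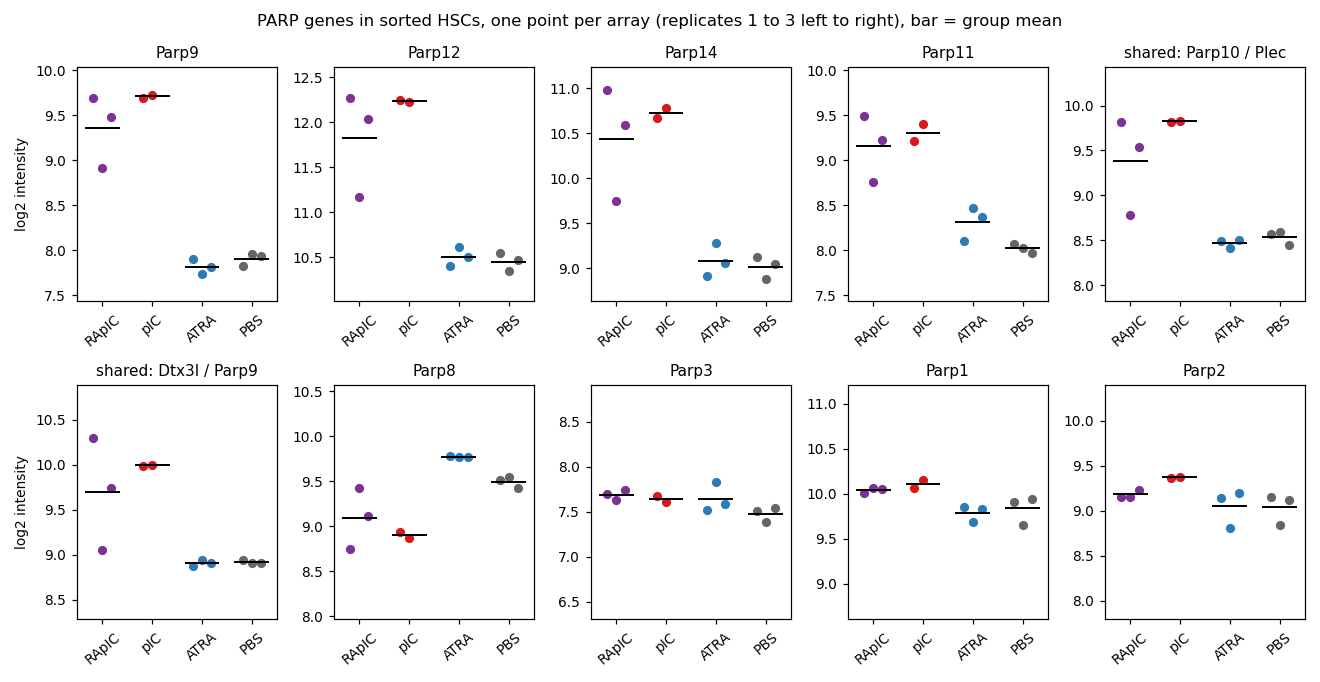
Log2 intensity of the 8 Parp genes and both shared probe sets on each of 11 arrays. Points are arrays (replicates from left to right), bars are group means, and every panel spans the same number of log2 units. Parp9, Parp12, Parp14 and Parp11 are higher on all RApIC and pIC arrays than on all ATRA and PBS arrays, with RApIC replicate 2 lowest of the 5. Of all features, 23.4% have both pIC arrays above every PBS array, and 11.7% every RApIC array above every ATRA array. Parp8 has lower means with pIC than without, and its RApIC replicate 2 reaches the PBS arrays.

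The genes lie in several places of the mouse genome (GRCm38.p6, from RefSeq). Parp14 (16:35831892-35871518), Dtx3l (16:35926515-35939027) and Parp9 (16:35938470-35972621) are neighbours on chromosome 16, where the Dtx3l and Parp9 genes overlap by 558 bases and 54996 bases separate Parp14 from Dtx3l. Human PARP9 and DTX3L are known to be transcribed in opposite directions from a common interferon-responsive promoter. Parp11 and Parp12 are both on chromosome 6 but far apart, at 127446830-127514233 and 39086412-39118349. Parp10 on chromosome 15 (76232995-76243440) starts 1616 bases after the end of Plec, the neighbour with which its probe set is shared.

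RefSeq promoter windows (250 bases before to 50 after a transcript start, GRCm38.p6) were available for 7 of the 10 genes, with 2 windows for Parp11. Windows for Parp9, Parp10 and Parp14 were not used here. They were searched on both strands for GAAA followed after any 2 bases by GAAA, the core of the interferon-stimulated response element (ISRE), and for TTCNNNGAA, the gamma-activated site (GAS) bound by Stat dimers. Among 32851 windows of this length in the table, 3.44% held the ISRE core and 8.30% the GAS. Of the 8 windows of these genes, 1 held each, and it was the upstream Parp11 window, where both matches overlap. The ISRE match TTTCGATTTC, which is the core on the opposite strand, covers bases 44 to 35 before the start, and the GAS match TTCTTGGAA covers bases 37 to 29. The windows of 3 genes are shown with matches in capitals, that of Parp11 because it alone holds them, and those of Parp12 and Dtx3l because their probe sets rose under pIC without such a match. A match is a stretch of letters and not a measured binding site, and a window without a match says nothing about binding elsewhere.
Parp11 (chr6:127446590-127446889, plus strand): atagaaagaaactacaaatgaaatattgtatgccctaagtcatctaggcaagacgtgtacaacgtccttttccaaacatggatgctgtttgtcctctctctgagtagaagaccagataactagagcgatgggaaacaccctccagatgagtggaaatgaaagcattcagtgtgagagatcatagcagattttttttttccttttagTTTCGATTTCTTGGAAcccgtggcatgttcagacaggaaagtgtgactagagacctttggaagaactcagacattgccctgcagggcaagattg
Parp12 (chr6:39118300-39118599, minus strand): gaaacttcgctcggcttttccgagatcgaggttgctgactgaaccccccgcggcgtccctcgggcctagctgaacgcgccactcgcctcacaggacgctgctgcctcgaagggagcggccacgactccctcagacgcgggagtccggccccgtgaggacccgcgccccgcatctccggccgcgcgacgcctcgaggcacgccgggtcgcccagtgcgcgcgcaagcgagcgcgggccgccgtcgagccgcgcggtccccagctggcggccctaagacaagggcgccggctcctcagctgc
Dtx3l (chr16:35938978-35939277, minus strand): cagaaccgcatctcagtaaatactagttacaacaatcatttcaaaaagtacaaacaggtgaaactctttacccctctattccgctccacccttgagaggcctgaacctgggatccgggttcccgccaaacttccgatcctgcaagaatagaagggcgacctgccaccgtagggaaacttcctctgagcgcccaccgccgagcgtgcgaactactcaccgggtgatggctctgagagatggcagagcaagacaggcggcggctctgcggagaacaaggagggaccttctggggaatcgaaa

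pIC was set against PBS for the response to the double-stranded RNA alone. Among the 8 Parp genes, 4 rose (Parp9, Parp12, Parp14 and Parp11), 1 fell (Parp8) and Parp1, Parp2 and Parp3 did not pass. Over all features 14.7% were called, 8.97% higher and 5.75% lower. The median difference of the 8 genes was 0.81, against 0.001 over all features. Both shared probe sets rose too. In RNA of a sorted population, a change in RNA per cell and a change in which cells were sorted cannot be told apart.

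Parp9, the macrodomain protein that pairs with Dtx3l, read 9.69 and 9.73 on the pIC arrays against 7.83, 7.96 and 7.94 on the PBS arrays. Both pIC arrays were above every PBS array, as they were for 23.4% of all features. The difference was 1.80 ± 0.18 (3.49-fold, adjusted p 0.000661), which ranked 27 of 22182 by p. Parp12, a zinc-finger mono-ADP-ribosyltransferase that restricts RNA viruses, had 12.25 and 12.23 on the pIC arrays against 10.54, 10.34 and 10.47 on the PBS arrays. It was brighter than 98.3% of features by its mean over all arrays, and it rose by 1.79 ± 0.25 (3.45-fold, adjusted p 0.00245).

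Parp14, which carries several macrodomains and was first described as a coactivator of Stat6, had 10.66 and 10.78 on the pIC arrays against 9.12, 8.88 and 9.04 on the PBS arrays. The groups did not overlap, as in the 23.4% of all features separated upward, and the rise was 1.71 ± 0.27 (3.27-fold, adjusted p 0.004). Parp11, a mono-ADP-ribosyltransferase of the nuclear envelope that in human cells adjusts the level of the type I interferon receptor, had 9.21 and 9.40 on the pIC arrays against 8.07, 8.03 and 7.98 on the PBS arrays. It rose by 1.28 ± 0.18 (2.43-fold, adjusted p 0.00273). The 95% intervals of the 4 rises overlapped one another (0.88 to 1.68 for Parp11, 1.10 to 2.31 for Parp14, 1.24 to 2.33 for Parp12 and 1.41 to 2.20 for Parp9), and the order among them was not tested.

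The shared Parp10/Plec probe set had 9.81 and 9.83 on the pIC arrays against 8.58, 8.60 and 8.45 on the PBS arrays (1.28 ± 0.22, adjusted p 0.00564). Parp10 is a mono-ADP-ribosyltransferase first found as a partner of Myc, and Plec encodes the cytoskeletal linker plectin. The shared Dtx3l/Parp9 probe set had 9.99 on both pIC arrays against 8.94, 8.90 and 8.91 on the PBS arrays (1.07 ± 0.26, adjusted p 0.0195). The Parp10/Plec call was lost without pIC replicate 2 (adjusted p 0.0539), and the Dtx3l/Parp9 call without either pIC array or PBS replicate 2 (0.0538 to 0.111).

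Parp8, a mono-ADP-ribosyltransferase with little known function, went the other way. It had 8.93 and 8.87 on the pIC arrays against 9.51, 9.54 and 9.42 on the PBS arrays, with no overlap. The difference was -0.59 ± 0.15 (0.664 times the PBS level, adjusted p 0.0265). The call was lost when either pIC array, or PBS replicate 1 or 2, was left out (adjusted p 0.0671 to 0.149), with values of -0.62 to -0.56. Among all features, 19.6% had both pIC arrays below every PBS array.

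The DNA-break enzymes gave small positive values that did not pass. Parp1, the main sensor of DNA strand breaks, had 10.07 and 10.15 on the pIC arrays against 9.91, 9.66 and 9.94 on the PBS arrays (0.27 ± 0.10, 95% interval 0.05 to 0.49, adjusted p 0.0988). Parp2, its closest relative, had 9.36 and 9.38 on the pIC arrays against 9.16, 8.84 and 9.12 on the PBS arrays (0.33 ± 0.13, interval 0.05 to 0.62, adjusted p 0.116). Parp3, which acts at double-strand breaks, had 7.67 and 7.61 on the pIC arrays against 7.51, 7.38 and 7.54 on the PBS arrays (0.16 ± 0.10, interval -0.06 to 0.39, adjusted p 0.359). In each of the 3 genes the pIC arrays were above all PBS arrays, as they were for 23.4% of all features.

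**Figure D2:**
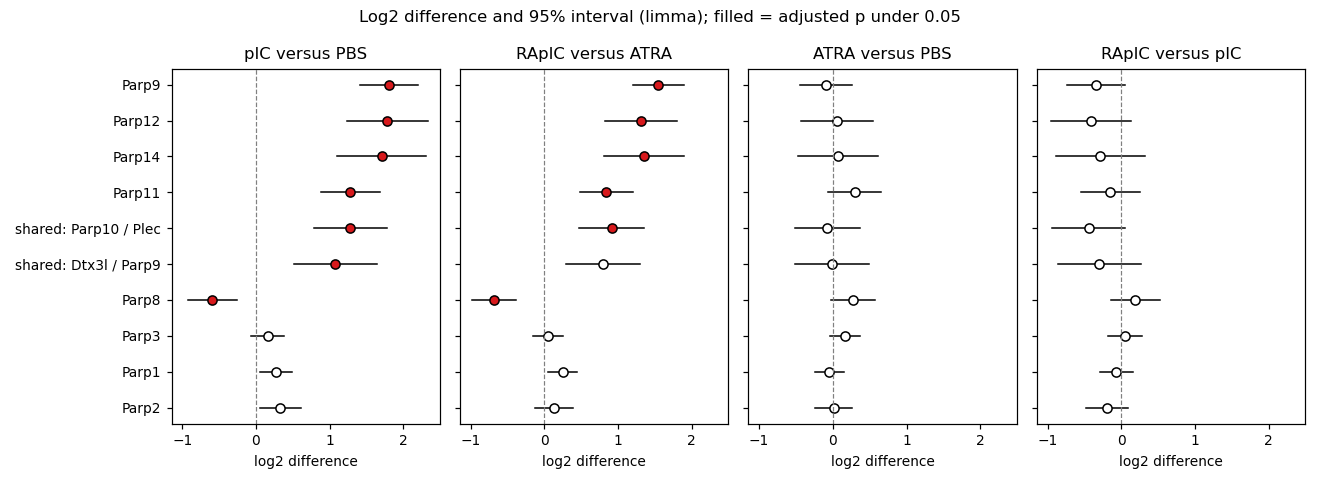
Log2 difference (x axis) with its 95% interval from limma for the 8 Parp genes and both shared probe sets (rows) in 4 comparisons (panels). Filled points passed an adjusted p of 0.05. pIC versus PBS and RApIC versus ATRA each have 4 rises and 1 fall among the genes, and ATRA versus PBS and RApIC versus pIC have no filled point.

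The comparison of RApIC with ATRA asked the same of HSCs from mice that had ATRA first. Again Parp9, Parp12, Parp14 and Parp11 rose and Parp8 fell, while 7.21% of all features were called, 3.51% higher and 3.71% lower. The median difference of the 8 genes was 0.54, against -0.003 over all features. This comparison and that of pIC with PBS share no array.

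Parp9 had 9.70, 8.92 and 9.48 on RApIC replicates 1, 2 and 3 against 7.91, 7.73 and 7.81 on the ATRA arrays (1.55 ± 0.16, 2.92-fold, adjusted p 0.000984). Parp14 had 10.98, 9.74 and 10.59 against 8.91, 9.28 and 9.05 on the ATRA arrays (1.36 ± 0.25, adjusted p 0.0113). Parp12 had 12.27, 11.16 and 12.03 against 10.40, 10.62 and 10.50 on the ATRA arrays (1.32 ± 0.22, adjusted p 0.00823). In all 3 genes replicate 2 was the lowest RApIC array and still above every ATRA array, a separation that 11.7% of all features showed upward and 12.4% downward.

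Parp11 had 9.49, 8.76 and 9.22 on the RApIC arrays against 8.11, 8.48 and 8.37 on the ATRA arrays (0.84 ± 0.16, adjusted p 0.0148). Parp8 had 8.75, 9.42 and 9.11 on the RApIC arrays against 9.78, 9.77 and 9.77 on the ATRA arrays (-0.68 ± 0.14, adjusted p 0.0167). The ATRA arrays agreed on Parp8 within an SD of 0.006 (n = 3), and no RApIC array reached them. Parp1 (0.25 ± 0.09), Parp2 (0.13 ± 0.11) and Parp3 (0.05 ± 0.09) did not pass, at adjusted p 0.125 to 0.850. The shared Parp10/Plec probe set rose by 0.91 ± 0.20 (adjusted p 0.0237), and the shared Dtx3l/Parp9 probe set had 0.79 ± 0.23 and did not pass (adjusted p 0.0634).

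These values rest in part on RApIC replicate 2. Without it the differences from ATRA were 1.77 ± 0.09 for Parp9, 1.70 ± 0.14 for Parp14, 1.65 ± 0.10 for Parp12, 1.04 ± 0.12 for Parp11 and -0.85 ± 0.10 for Parp8, all called (adjusted p 4.73e-06 to 0.000626), and the shared Dtx3l/Parp9 probe set passed with 1.12 ± 0.13 (adjusted p 0.000527). Other arrays decided calls as well. The Parp8 call was lost without any 1 of the ATRA replicates or RApIC replicate 3, that of Parp11 without ATRA replicate 1 or RApIC replicate 3, and that of Parp14 without RApIC replicate 3 (adjusted p 0.0518 to 0.0640). The Parp10/Plec call was lost without any 1 array of these groups other than RApIC replicate 2 (adjusted p 0.0636 to 0.0925). With only these 2 groups in the model, Parp9 alone was called (adjusted p 0.0267), and the other 4 genes had adjusted p 0.0676 to 0.0885. Calls over all features moved as well, from 1600 with all arrays to 3216 without RApIC replicate 2. They fell to 305 with only these 2 groups in the model, 473 without RApIC replicate 3 and 592 without ATRA replicate 1.

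The position of RApIC replicate 2 varied between genes. Its difference from the ATRA mean was 62.1% of that of the other RApIC arrays for Parp9, 42.5% for Parp11, 41.1% for Parp8, 40% for Parp12 and 38.7% for Parp14. For the shared probe sets it was 26.3% (Parp10/Plec) and 13.1% (Dtx3l/Parp9). On the same array Irf9, the DNA-binding part of the complex that reads interferon signals at ISREs, had 96.4%, Irf7, the factor that amplifies interferon production, 75.8%, and Stat2 45.3%. Irf1 differed from the ATRA mean by -0.12 there, against 0.40 on the other RApIC arrays. The T- and NK-cell markers of this array had a median 0.09 above the PBS mean, against 1.57 and 2.15 on the other RApIC arrays and -0.17 to 0.15 on the PBS arrays. Its macrophage markers summed to 61.7, against 65.2 and 66.1 on the other RApIC arrays and 56.9 to 57.2 on the PBS arrays. By their median this array did not stand apart, at 0.25 above the PBS mean, against 0.10 and 0.29 on the other RApIC arrays. Its erythroid markers had a median of -0.23, against 0.48 and 0.67 on the other RApIC arrays. Relative to the PBS mean, its HSC markers had a median of -0.24, against -0.70 and -0.60 on the other RApIC arrays. Its megakaryocyte markers had -0.08, against -0.73 and -0.42. For B-cell markers the medians were 0.10, against 0.19 and 0.14, and for neutrophil markers 0.07, against 0.19 and 0.06. This array and the other RApIC arrays were above all ATRA and PBS arrays for Parp9, Parp11, Parp12 and Parp14. The same held for Parp1 and both shared probe sets. Of all features, 11.7% had every RApIC array above every ATRA array, and 9.82% above every PBS array. The share with both orders was not counted.

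**Figure D3:**
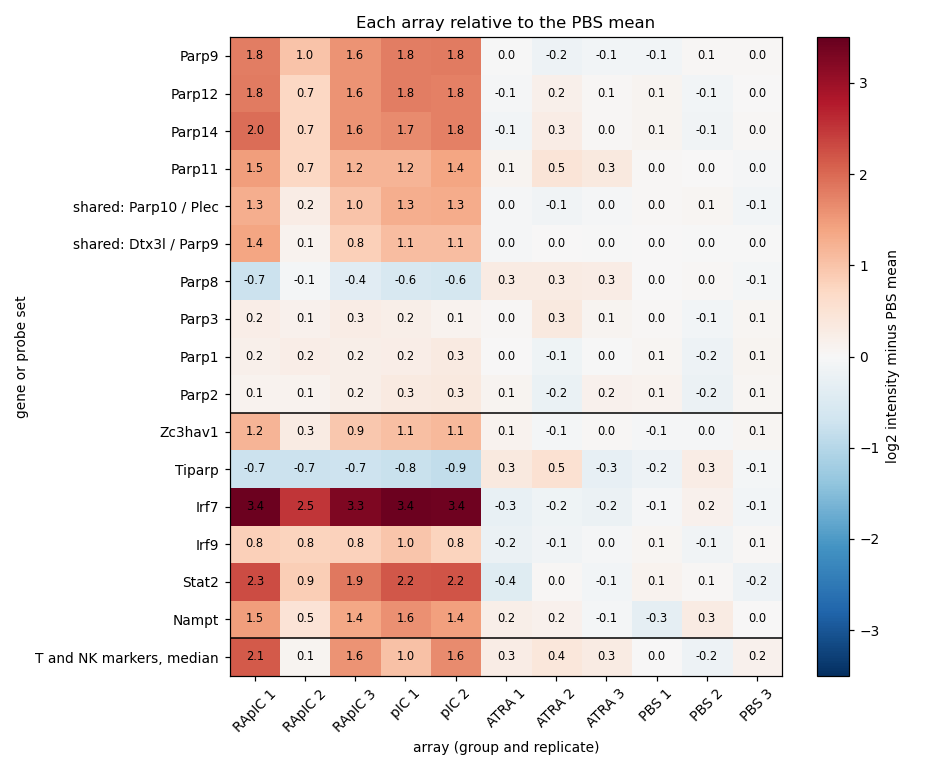
Log2 intensity minus the PBS mean (colour and printed number) for each of 11 arrays (columns). Rows are the Parp genes and shared probe sets, then 6 genes of the fixed lists, then 11 T- and NK-cell markers as their median. RApIC 2 is paler than RApIC 1 and RApIC 3 for Parp9, Parp12, Parp14 and Parp11 but not for Tiparp or Irf9.

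Averaged over both backgrounds, pIC changed 6 of the 8 genes, 5 upward and 1 downward, beside 22.1% of all features, 12.2% higher and 9.89% lower. The mean effects were 1.68 ± 0.12 for Parp9, 1.55 ± 0.17 for Parp12, 1.53 ± 0.18 for Parp14, 1.06 ± 0.12 for Parp11 and -0.64 ± 0.10 for Parp8 (adjusted p 3.25e-05 to 0.00159). Parp1 passed here, with 0.26 ± 0.07 (1.2-fold, adjusted p 0.0171). Its 5 arrays with pIC lay between 10.01 and 10.15 and its 6 arrays without pIC between 9.66 and 9.94. Of all features, 23.4% had both pIC arrays above every PBS array, and 11.7% had every RApIC array above every ATRA array. The share separated across both backgrounds together was not counted. The Parp1 call was lost under cyclic loess scaling (0.19 ± 0.07, adjusted p 0.0652) and without pIC replicate 2 (0.24 ± 0.08, adjusted p 0.0764). Parp2 (0.23 ± 0.09, adjusted p 0.0814) and Parp3 (0.10 ± 0.07, adjusted p 0.345) did not pass.

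RApIC set against PBS gave the combined effect, with the PBS arrays already used above. Parp9 (1.46 ± 0.16), Parp14 (1.42 ± 0.25), Parp12 (1.37 ± 0.22) and Parp11 (1.13 ± 0.16) rose at adjusted p 0.00171 to 0.0150, where 3.11% of all features were called, 1.60% higher and 1.51% lower. In these 4 genes every RApIC array was above every PBS array, as in 9.82% of all features. Parp8 had -0.40 ± 0.14 (adjusted p 0.135) and passed without RApIC replicate 2 (-0.57 ± 0.10, adjusted p 0.00698). In that fit 2472 of all features were called, against 689 with all arrays. Parp12 and Parp14 missed the threshold without PBS replicate 2 or RApIC replicate 3 (adjusted p 0.0565 to 0.0700).

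ATRA alone called none of the 8 genes against PBS, and 0 had an unadjusted limma p under 0.05. Over all features 1 was called (0.00451%), and 1507 had an unadjusted p under 0.05. Other settings called up to 28 features (array weights), with 26 without RApIC replicate 2, 22 with a trend and robust prior and 16 with the dimmest 40% left out. The differences ran from -0.09 ± 0.16 for Parp9 to 0.29 ± 0.16 for Parp11. In Parp11 the ATRA arrays (8.11, 8.48 and 8.37) were all above the PBS arrays (8.07, 8.03 and 7.98), and in Parp8 the ATRA arrays (9.78, 9.77 and 9.77) were all above the PBS arrays (9.51, 9.54 and 9.42; 0.28 ± 0.14). Such separation held for 6.61% of all features upward and 6.08% downward, and neither gene passed (adjusted p 0.799 and 0.764). The 95% intervals reached up to 0.65 for Parp11 and 0.58 for Parp8.

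RApIC set against pIC asked whether ATRA beforehand altered the level reached under pIC. Limma called 0 of the 8 genes and 0 of 22182 features (0%), with 0 and 2242 at an unadjusted p under 0.05. With array weights 112 features were called, none of them among the 8 genes. The differences were -0.41 ± 0.25 for Parp12 (95% interval -0.96 to 0.13), -0.35 ± 0.18 for Parp9 (-0.74 to 0.05), -0.28 ± 0.27 for Parp14 (-0.89 to 0.32), -0.15 ± 0.18 for Parp11 (-0.55 to 0.25) and 0.19 ± 0.15 for Parp8 (-0.15 to 0.53). Without RApIC replicate 2 they were -0.08 ± 0.11 for Parp12, -0.12 ± 0.10 for Parp9, 0.06 ± 0.15 for Parp14, 0.05 ± 0.14 for Parp11 and 0.02 ± 0.11 for Parp8. All 5 differences were nearer to 0 without that array. Only Parp2 had groups that did not overlap, with 9.16, 9.15 and 9.23 on the RApIC arrays against 9.36 and 9.38 on the pIC arrays (-0.19 ± 0.13, adjusted p 0.647), beside 17.4% of all features separated downward.

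The interaction, the pIC effect after ATRA minus the pIC effect without it, also called 0 of the 8 genes and 0 features by limma (0%), with 0 and 1390 at an unadjusted p under 0.05. It was negative in all 8 genes, from -0.47 ± 0.33 for Parp12 to -0.02 ± 0.13 for Parp1, at adjusted p 0.809 to 0.986. The median of the 8 genes was -0.23, against -0.020 over all features, and the share of all features with a negative value was not counted. The 8 values come from the same arrays and are not separate observations. Its size rested on RApIC replicate 2 in several genes. It was -0.47 for Parp12, -0.44 for Parp11, -0.35 for Parp14, -0.25 for Parp9 and -0.09 for Parp8 with that array, and -0.14, -0.25, -0.0039, -0.03 and -0.25 in the same order without it. The intervals were wide, at -1.20 to 0.26 for Parp12 and -0.78 to 0.27 for Parp9. A smaller, an equal or a larger pIC effect after ATRA therefore cannot be told apart in these genes.

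Parp9 and Dtx3l were also to be compared within each array, since they are neighbours that act together. As Dtx3l had no probe set of its own, the Parp9 probe set was set against the shared Dtx3l/Parp9 probe set. The difference between the 2 probe sets was -0.60, -0.13 and -0.26 on the RApIC arrays, -0.30 and -0.27 on the pIC arrays, -0.96, -1.20 and -1.09 on the ATRA arrays and -1.12, -0.94 and -0.97 on the PBS arrays. The size of the difference has no meaning of its own, since probe sets differ in brightness, but it was closer to 0 on all 5 arrays with pIC than on all 6 without. The Parp9 probe set thus rose by 0.74 more than the shared one (0.76 after ATRA and 0.73 without it). A two-sided exact permutation test within each background gave p = 0.005, the smallest p that its 200 arrangements allow. Since the shared probe set reads Dtx3l and Parp9 together, this test does not compare the genes Dtx3l and Parp9. Whether the 2 probe sets respond alike to the same change in RNA was not tested.

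**Figure D4:**
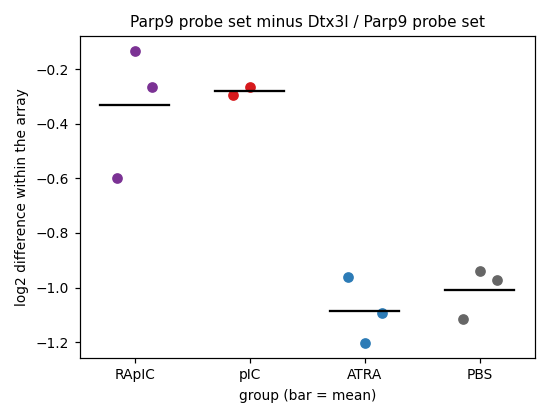
Log2 intensity of the Parp9 probe set minus that of the shared Dtx3l/Parp9 probe set on each array (y axis), by group (x axis). Points are arrays and bars are group means. The 5 arrays with pIC lie between -0.60 and -0.13, and the 6 without pIC lie at -0.94 or below.

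The genes whose 11 array values ran closest to those of Parp14, after each gene was centred on its own mean, were Herc6, Ifi35, Tent5a, Trafd1 and Ms4a6b, with root mean square differences of 0.098 to 0.150 log2 units (median of all genes 0.820). Herc6, the main ligase for Isg15 in mice, averaged 11.20 on RApIC, 11.52 on pIC, 9.80 on ATRA and 9.72 on PBS arrays. Among the genes themselves Parp12 was closer to Parp14 than any of these, at 0.07. The shared Dtx3l/Parp9 probe set was followed most closely by Grn, Nmi, Zc3hav1, Shisa5 and Samhd1 (0.085 to 0.113, median of all genes 0.551). Their pIC means were 0.99 to 1.27 above their PBS means, a description only, since the likeness of profile chose both sets of genes. Grn encodes the growth factor progranulin, Nmi a partner of Stat proteins, and Samhd1 an enzyme that depletes nucleotides and thereby hinders retroviruses.

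Of 7 other PARP family members (Parp4, Parp6, Parp16, Tiparp, Tnks, Tnks2 and Zc3hav1), 1 rose and 1 fell under pIC against PBS, with a median of -0.13 against 0.001 over all features. The shares called over all features, 8.97% higher and 5.75% lower in pIC versus PBS and 3.51% and 3.71% in RApIC versus ATRA, are the background for this and the following lists, and no list was tested against them. Zc3hav1, the catalytically inactive antiviral protein ZAP that binds viral RNA, had 10.22 and 10.31 on the pIC arrays against 9.11, 9.14 and 9.25 on the PBS arrays (1.10 ± 0.20, adjusted p 0.00657). Tiparp, a mono-ADP-ribosyltransferase induced by the aryl hydrocarbon receptor, had 8.24 and 8.15 on the pIC arrays against 8.82, 9.26 and 8.94 on the PBS arrays (-0.81 ± 0.20, adjusted p 0.0243).

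The same 2 genes were called in RApIC versus ATRA, with 0.78 ± 0.18 for Zc3hav1 (adjusted p 0.0279) and -0.93 ± 0.18 for Tiparp (adjusted p 0.0159). Tiparp had 8.26, 8.26 and 8.28 on RApIC replicates 1, 2 and 3, so that replicate 2 did not stand apart for it. The fall of Tiparp was -0.43 ± 0.16 and not called when the mean of its probe sets was used (adjusted p 0.101 against PBS). In RApIC versus ATRA that mean gave -0.43 ± 0.14 (adjusted p 0.0992). Tiparp also missed the threshold against PBS without PBS replicate 2 or either pIC replicate (adjusted p 0.0755 to 0.145), and against ATRA without ATRA replicate 1 or 2 or RApIC replicate 1 or 3 (0.0541 to 0.0634). Zc3hav1 missed it in pIC versus PBS without pIC replicate 2 (adjusted p 0.0638), and in RApIC versus ATRA without any 1 array of these groups other than RApIC replicate 2 (0.0668 to 0.104).

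Of 8 measured enzymes that remove or break down ADP-ribose, 2 rose and 1 fell in pIC versus PBS (median 0.10), and 0 were called in RApIC versus ATRA by limma. Nudt5 (0.58 ± 0.14, adjusted p 0.0180) and Nudt9 (0.45 ± 0.12, adjusted p 0.0259), hydrolases of free ADP-ribose, rose, and Macrod1, which takes single ADP-ribose units off proteins, fell (-0.50 ± 0.14, adjusted p 0.0422). All 3 calls were lost without pIC replicate 1 or 2 (adjusted p 0.0855 to 0.178), that of Nudt5 also without PBS replicate 2 and that of Nudt9 without PBS replicate 1 or 2 (0.0543 to 0.0738). The Macrod1 call held only without RApIC replicate 1 or 2 among the fits that left out 1 array. In RApIC versus ATRA, Nudt5 had 0.37 ± 0.12 (adjusted p 0.0971), and passed without RApIC replicate 2 (0.53 ± 0.08, adjusted p 0.00264), as did Macrod1 in the other direction (-0.34 ± 0.09, adjusted p 0.0251).

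Among 20 genes that make or use NAD, 1 rose in pIC versus PBS (median 0.07). It was Nampt, the rate-limiting enzyme of NAD salvage, with 9.35 and 9.20 on the pIC arrays against 7.43, 8.05 and 7.78 on the PBS arrays (1.52 ± 0.26, 2.86-fold, adjusted p 0.00538). After ATRA, Nampt had 9.22, 8.24 and 9.12 on the RApIC arrays against 7.95, 7.91 and 7.68 on the ATRA arrays (1.01 ± 0.23, adjusted p 0.0285), a call lost without any 1 array of these groups other than RApIC replicate 2 (0.0705 to 0.109). Nadk, the NAD kinase, had 0.25 ± 0.08 in pIC versus PBS (adjusted p 0.0619) and was called in RApIC versus ATRA (0.27 ± 0.07, adjusted p 0.0452), though among the fits that left out 1 array only the one without RApIC replicate 2 kept that call. The deacylase Sirt7 had 0.44 ± 0.14 (adjusted p 0.0682) in pIC versus PBS. Nadk and Sirt7 passed in pIC versus PBS without RApIC replicate 2 (adjusted p 0.0454 and 0.0431).

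Of 13 partners of Parp1, Parp2 and Parp3 in strand break repair, 3 rose in pIC versus PBS (median 0.17). Hpf1, the cofactor that directs Parp1 and Parp2 to serine residues, had 10.06 and 10.01 on the pIC arrays against 9.32, 9.63 and 9.60 on the PBS arrays (0.51 ± 0.11, adjusted p 0.0124). The scaffold Xrcc1 (0.31 ± 0.08, adjusted p 0.0283) and the phosphodiesterase Tdp1 (0.26 ± 0.08, adjusted p 0.0483) were called, and both calls were lost under cyclic loess scaling (adjusted p 0.0957 and 0.143). All 3 missed the threshold without pIC replicate 1 or 2 (adjusted p 0.0757 to 0.196), Xrcc1 also without any 1 PBS replicate (0.0510 to 0.0669), and the Tdp1 call held only without RApIC replicate 2 among the fits that left out 1 array. In RApIC versus ATRA none of these rose and 1 gene fell, the Ku80 gene Xrcc5 (-0.44 ± 0.11, adjusted p 0.0391), which was chosen after its value was seen.

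The other Deltex genes, Dtx1 to Dtx4, gave 0 calls by limma in pIC versus PBS, with 1 of the 4 at an unadjusted p under 0.05. That was Dtx3, with 8.45 and 8.66 on the pIC arrays against 8.98, 9.06 and 9.09 on the PBS arrays (-0.48 ± 0.15, adjusted p 0.0557). It passed without RApIC replicate 2 (adjusted p 0.00653), under cyclic loess scaling (adjusted p 0.0296) and with the dimmest 40% of features left out (adjusted p 0.0354), among other settings. Dtx3 is a ubiquitin ligase of the same family as Dtx3l.

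Of 4 measured transcription factors that carry the interferon signal, 3 rose in pIC versus PBS (median 1.53), and the same 3 in RApIC versus ATRA. Stat2, part of the complex that binds ISREs, had 11.54 and 11.58 on the pIC arrays against 9.51, 9.43 and 9.20 on the PBS arrays (2.18 ± 0.32, adjusted p 0.00297). Irf9 had 10.67 and 10.48 on the pIC arrays against 9.75, 9.58 and 9.74 on the PBS arrays (0.88 ± 0.09, adjusted p 0.000801). Irf1 had 0.37 ± 0.15 and did not pass (adjusted p 0.124), and passed without RApIC replicate 2 (adjusted p 0.0140).

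**Figure D5:**
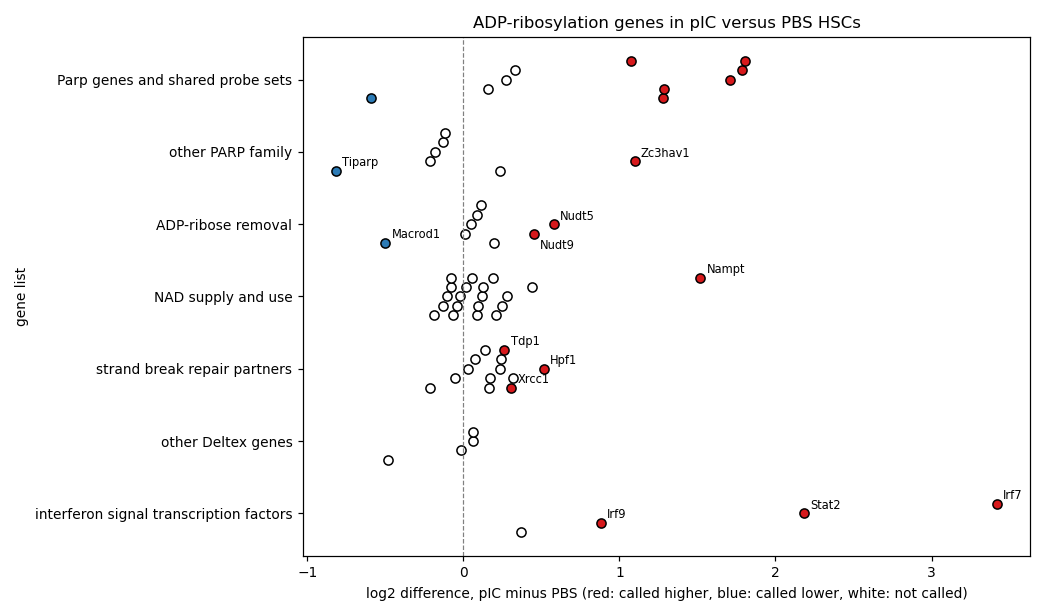
Log2 difference of pIC minus PBS (x axis) for the 8 Parp genes with both shared probe sets and for 6 fixed gene lists (rows). Each point is a gene, red if called higher, blue if called lower and white if not called, and vertical offsets only separate points. Zc3hav1 (1.10) lies near the shared Dtx3l/Parp9 probe set (1.07), and Nampt (1.52) lies between Parp11 (1.28) and Parp14 (1.71).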

How the data were processed

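The table deposited by the authors holds log2 intensities, 41345 probe sets by 11 arrays. The oligo package 1.36.1, RMA and limma 3.28.20 are named, without role or order, per the submitters' processing notes. Probe sets were named with the platform's annotation, which gives 23521 probe sets 1 gene symbol and 1814 several. Where a gene had several probe sets, its brightest probe set on average stood for it (22180 genes), and the probe sets annotated to Parp10 with Plec and to Dtx3l with Parp9 were added as features of their own. Limma 3.58.1 in R 4.3.3 estimated 4 group means from all arrays (7 residual degrees of freedom), with 7 contrasts, two-sided tests and Benjamini-Hochberg adjustment over 22182 features. The number of arrays limits the precision.

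The genes, lists and tests were chosen with earlier results of these data known. Named are the Parp genes and Dtx3l in every contrast, up to 4 genes per list with the smallest p in pIC versus PBS (some not given values in the text), and the 5 closest profiles to Parp14 and to the Dtx3l probe set. The fit was tested on simulated data. The planned test of Parp9 against Dtx3l was run on the Parp9 probe set against the shared one, since Dtx3l had none of its own. Windows listed on opposite strands were checked against each other: 1893 of 1893 overlapping pairs were reverse complements, so each is read along its gene's strand. Alternatives were cyclic loess scaling, a trend and robust prior, the dimmest 40% left out, averaging or separating the probe sets of a gene, the replicate number as a block, array weights, only the groups compared, and each array left out. Figures were drawn in Python 3.11.15 with matplotlib 3.10.9. Some genes of the lists are not reported here.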

Additional observations from a re-analysis of the deposited data

How the results depend on the processing

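Among the 8 Parp genes, 5 were called in pIC versus PBS under every alternative that kept all arrays, and 4 to 5 when 1 array was left out. In RApIC versus ATRA 5 were called, but 1 with only the groups compared in the model, and 2 to 5 when 1 array was left out (3 without ATRA replicate 1, 2 without RApIC replicate 3). Over all features these 3 fits called 305, 592 and 473, against 1600. In RApIC versus PBS 4 were called, 1 with only the groups compared, and 2 to 5 when 1 array was left out (2 without PBS replicate 2 or RApIC replicate 3), with 70, 171 and 159 of all features called in these fits, against 689. For pIC over both backgrounds the 6 calls became 5 to 6 when 1 array was left out, and 5 under cyclic loess. Array weights gave 6 calls in RApIC versus ATRA (Parp1 added, adjusted p 0.0301), 5 in RApIC versus PBS (Parp8 added, 0.0210) and 7 over both backgrounds (Parp2 added, 0.0389). Over all features they called 4594, 3133 and 6566 in these comparisons, against 1600, 689 and 4900. RApIC replicates 1, 2 and 3 had weights of 0.647, 0.366 and 4.2, so the RApIC means rested mainly on replicate 3. Leaving out RApIC replicate 2 also raised the calls over all features, to 4054 in pIC versus PBS, 3216 in RApIC versus ATRA and 2472 in RApIC versus PBS. The shared Dtx3l/Parp9 probe set passed in RApIC versus ATRA with array weights (0.00171) and with the dimmest 40% left out (0.0411). The counts of 0 by limma in ATRA versus PBS, RApIC versus pIC and the interaction stayed at 0 in all alternatives run. The Parp9 minus shared probe set difference of 0.74 was 0.77 under cyclic loess and 0.69 to 0.81 when 1 array was left out. Same-numbered arrays did not deviate together (correlations -0.109 to 0.0975, and 0 of 11 arrays correlated best with their own number). With the replicate number as a block the calls were 5 in pIC versus PBS, 5 in RApIC versus ATRA, 4 in RApIC versus PBS and 7 over both backgrounds, where Parp2 was added (0.26 ± 0.07, adjusted p 0.0386). With that block Macrod1 (adjusted p 0.0526) and Tdp1 (0.0536) in pIC versus PBS, and Nampt (0.0505) and Nadk (0.0729) in RApIC versus ATRA, were no longer called. Small differences that were not called changed sign. Parp2 in ATRA versus PBS was -0.0144 with array weights, and the Parp1 interaction was 0.0416 under cyclic loess and 0.0185 with array weights. When 1 array was left out, ATRA versus PBS ranged from -0.14 to 0.0067 for Parp1, -0.0885 to 0.13 for Parp2, -0.00075 to 0.11 for Parp12, -0.0327 to 0.15 for Parp14 and -0.0324 to 0.0029 for the shared Dtx3l/Parp9 probe set. Parp3 ranged from -0.0135 to 0.14 in RApIC versus ATRA. RApIC versus pIC ranged from -0.32 to 0.0483 for Parp11, -0.56 to 0.0642 for Parp14 and -0.59 to 0.0269 for the shared Dtx3l/Parp9 probe set. The interaction ranged from -0.0744 to 0.0686 for Parp1, -0.25 to 0.0840 for Parp8 and -0.58 to 0.0414 for the shared Dtx3l/Parp9 probe set. The fits of 2 groups or of 10 arrays have fewer samples, and the cause of the other changes was not tested.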
